A study of Mus musculus with 2 samples.

Results

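Fibroblasts marked by Nkain2, Fbn2 and Vit were examined in droplet single-cell RNA sequencing of whole mouse hearts. They were chosen barcode by barcode from raw UMIs (unique molecular identifiers, which count captured RNA molecules). A member had at least 200 detected genes, under 0.6% of its UMIs from the cardiomyocyte genes Ryr2 and Myh6, and at least 2 UMIs of Pdgfra, Col1a2, Col3a1 and Dcn together. Its summed UMIs of Nkain2, Fbn2, Vit, Gpr39 and Acss3 (the C score) had to reach 2 and to exceed both the A score (Col8a1, Nox4, Smoc2, Gsta3 and Rgs17) and the B score (Pi16, Cd55, Efemp1, Scara5 and Adgrd1). It also had under 4 UMIs of Postn, Cilp, Ltbp2 and Meox1, and at most 1 UMI each of F13a1 with Adgre1 and of Flt1 with Cdh5. The rule found 226 members among 9935 barcodes in the Sham library and 225 among 9932 in the TAC library, 451 of 19867 in all.

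Both libraries came from C57BL/6 mice. The TAC mice were males whose aortic arch was tied at 8 weeks of age (transverse aortic constriction, which overloads the left ventricle) and were studied 6 weeks later, and the Sham mice had the operation without the constriction. The design text calls the control mice uninjured instead. No age at surgery and no time after it were given for the Sham mice, so whether they matched the TAC mice in these is not known. Each library pooled 3 to 5 hearts and was the only one of its condition, so no test between conditions was possible, no p-value is given, and intervals are 95% intervals that cover counting error only. Pooling also hides which mouse a barcode came from. The libraries shared 32 barcode sequences, of which 1 was a Sham member and 3 were TAC members.

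Cardiac fibroblasts make and remodel the matrix between heart muscle cells, and they differ in state between the interstitium, the vessel sheath and scarred tissue. Nkain2 encodes a membrane protein that binds the sodium pump, Fbn2 encodes fibrillin-2 of elastic microfibrils, and Vit encodes vitrin, a secreted matrix protein. Gpr39 is a zinc-sensing receptor and Acss3 is a mitochondrial acyl-CoA synthetase that uses propionate. In GENCODE M21 (mouse build GRCm38), Nkain2 lies on the minus strand at chr10:31689310-32890462, Fbn2 on the minus strand at chr18:58008623-58210487, Vit on the plus strand at chr17:78508064-78627408, Gpr39 on the plus strand at chr1:125676995-125873862 and Acss3 on the minus strand at chr10:106933517-107123668. Gpr39 overlaps Lypd1 and Acss3 overlaps Ppfia2, both on the opposite strand.

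Fibroblast barcodes were those that met every condition other than the C, A, B and Postn scores. The members were 226 of 2171 fibroblast barcodes in Sham, 10.4% (9.16 to 11.8, Clopper-Pearson), and 225 of 2173 in TAC, 10.4% (9.10 to 11.7), so the intervals of the libraries overlapped almost entirely. After each barcode was thinned to 1000 UMIs the shares were 10.4% (8.90 to 12.02) and 9.38% (8.02 to 10.9), with 16 Sham and 8 TAC members too shallow to enter. A fibroblasts (A score of at least 2 and larger than B and C) numbered 1072 in Sham and 965 in TAC, and B fibroblasts, defined in the same way, 418 and 513. Members held a median of 2160.5 UMIs in Sham and 2246 in TAC, near the 2409.5 and 2399 of A fibroblasts and the 2373.5 and 2456 of B fibroblasts. The median mitochondrial share of UMIs was low, at 0.484% in Sham and 0.354% in TAC members. Over all barcodes it was 0.453% and 0.285%. The paper describes single cells from dissociated hearts, and whether the barcodes held whole cells or mainly nuclear RNA was not tested.

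The general fibroblast genes carried the label. All 20 genes of a pan-fibroblast list, such as Col1a1, Lum, Dpt, Mmp2 and Tcf21, were detected in the members of both libraries. A level is a group's UMIs of a gene per 1000000 of the group's UMIs (CPM). Their summed level was 22069 CPM in Sham members and 22066 in TAC members, against 23620 and 23746 in A fibroblasts and 21772 and 21684 in B fibroblasts.  The summed level of 15 cardiomyocyte genes was 2499 in Sham members, 2674 in A and 2383 in B fibroblasts, and 2068, 2323 and 2250 in TAC. The summed level of 15 endothelial genes was 507 in Sham and 510 in TAC members, and that of 12 macrophage genes 315 and 303.

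Some members held genes of other cell types. In Sham, 8 members had 5 to 14 UMIs of 8 nerve genes (among them Kcna1, Gfra3 and Lgi4), while no other member had over 2. In TAC, 5 members had 3 to 12. A further 2 Sham and 4 TAC members had 16 to 103 UMIs of 11 mesothelial genes such as Muc16, Upk3b and Wt1, while no other member had over 1. In addition, 3 Sham and 6 TAC members had 5 or more UMIs of 12 pericyte genes, Abcc9 foremost, and 1 TAC member met 2 of these limits. The nerve members supplied 89 Nkain2 UMIs in Sham and 79 in TAC and none of the other marker genes. The mesothelial members supplied only Gpr39, 4 UMIs in Sham and 24 in TAC. Leaving out all such barcodes kept 213 members in Sham and 211 in TAC (called the trimmed members below). In TAC 1 trimmed member, which lay in a small cluster with the nerve members, held all 29 Cadm2 UMIs and 7 of the 1705 Nkain2 UMIs of the trimmed TAC members. The gene lists and minimum counts for this step were set after the data were seen, and A and B fibroblasts were trimmed in the same way beside them.

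In the trimmed members the nerve genes Kcna1, Gfra3 and Foxd3 were at 0 in both libraries, and so were the mesothelial genes Upk3b, Upk1b, Krt8, Krt18, Krt19, Lrrn4, Muc16 and Bnc1. These genes were on the lists used for trimming, so low counts follow from that step. Foxd3 was at 0 in the nerve members too. On a fuller list of 15 nerve sheath genes the summed level was 468 in trimmed Sham members, against 372 in A and 400 in B fibroblasts (untrimmed). In TAC it was 373, against 339 and 274.5. Apod of that list was still called higher than in trimmed A and B in both libraries. The summed level of the 12 pericyte genes was 95.7 in Sham and 165 in TAC; all members stood at 203 and 361, between the 169 and 194 of B and the 312 and 398 of A fibroblasts (all untrimmed). Scrublet, a caller of doublets, marked 3 of the Sham and 5 of the TAC members (1.33% and 2.22%), against 2.05% and 2.59% of A and 1.68% and 1.95% of B fibroblasts.

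The 5 marker genes chose the members, so their levels are a description. Nkain2 stood at 3122 CPM (2974 to 3275) in Sham members and 3252 (3103 to 3406) in TAC members, against 49.8 and 77.8 in A fibroblasts and 49.3 and 51.2 in B fibroblasts. Fbn2 stood at 591 in Sham and 453 in TAC members, Vit at 517 and 361, Gpr39 at 433 and 323, and Acss3 at 686 and 390. In the main other cell types the levels were lower. Nkain2 was at 9.22 and 7.91 in macrophage barcodes, 7.70 and 16.1 in endothelial barcodes and 30.6 and 23.5 in cardiomyocyte barcodes. The exception was barcodes with nerve genes that fell outside the fibroblast rule, 1 in Sham and 5 in TAC, where Nkain2 stood at 11864 CPM (7884 to 17147) and 7930 CPM (6385 to 9737), above the members, and Gpr39 and Acss3 were at 0.

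After thinning to 1000 UMIs, 54.8% of Sham and 63.6% of TAC members had a Nkain2 UMI (60.2% and 70.7% unthinned), against 1.05% and 0.972% of macrophage barcodes (1.48% and 1.63% unthinned). Cardiomyocyte barcodes gave 2.34% and 2.24%. Both are given for comparison, since no empty droplets were used here. Gpr39 was seen in 24.8% of Sham and 21.2% of TAC members after thinning and in 0.105% of Sham macrophage barcodes, while no TAC macrophage barcode had one (0 of 1029, an upper limit of 0.358%). Gpr39 was also present in barcodes with 4 or more UMIs of Postn, Cilp, Ltbp2 and Meox1, at 190 CPM in Sham and 204 in TAC.

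**Figure D1:**
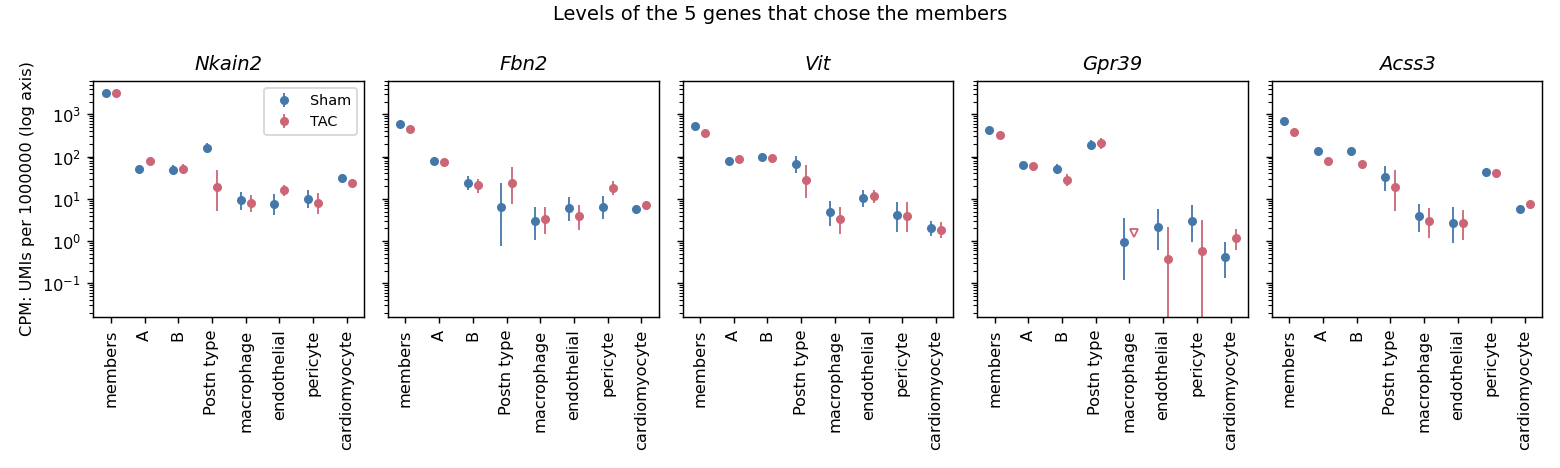
CPM (UMIs per 1000000, log axis) of the 5 marker genes in the members and in 7 other groups of barcodes, Sham in blue and TAC in red, with exact Poisson 95% intervals as bars and an open triangle at the upper limit where no UMI was seen. Members sit highest of the plotted groups for each gene by construction of the rule, with Nkain2 at 3122 and 3252, and barcodes with Postn-type genes (Postn, Cilp, Ltbp2 and Meox1) hold Gpr39 at 190 and 204.

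The members were uneven among themselves. The C score had a median of 8 in both libraries and ranged from 2 to 106 in Sham and from 2 to 76 in TAC. Nkain2 alone supplied 58.4% of the score's UMIs in Sham and 68.1% in TAC, and the 22 members richest in it held 51.3% and 43% of all Nkain2 UMIs. Yet 90 Sham and 66 TAC members had no Nkain2 UMI at all. Of the 5 genes, 51 Sham members showed 1, 86 showed 2, 51 showed 3, 26 showed 4 and 12 showed 5. The TAC members divided likewise into 57, 80, 60, 23 and 5.

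Removing one gene from the C score shows how many members depended on it. Without Nkain2, 73 of the Sham and 111 of the TAC members would not have been chosen. Without Gpr39, 27 and 16 would not. At the edge of the rule, 20 Sham and 19 TAC members had a C score of exactly 2, and their median depth was 1299.5 and 1649 UMIs. Just outside it were 47 Sham and 44 TAC fibroblast barcodes whose C score tied with the A or B score, and 11 and 18 with a C score of 1 and no A or B UMI. The limit on Postn-type genes by itself left out 1 barcode in each library.

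The rule was also applied with each marker in turn left out of the C score, and that gene was read in the barcodes so chosen. A and B fibroblasts were chosen anew against the shortened C score, so they are not the same barcodes as above. With Nkain2 left out, its Sham level was 218 CPM in A and 290 in B, against 49.8 and 49.3 in A and B fibroblasts under the full rule. The 5 genes had been picked to go together in these data, so the values describe how far each rests on the others and test nothing. Nkain2 reached 1963 CPM (1820 to 2114) in the 153 Sham barcodes chosen by the other 4 genes, 9.02 times (8.09 to 10.1) the level in A fibroblasts and 6.76 times (5.92 to 7.73) that in B fibroblasts. In TAC the 114 barcodes so chosen held 2247 CPM (2071 to 2435), 7.90 times the A level (7.09 to 8.81) and 7.02 times the B level (6.21 to 7.94). Fbn2 stood at 3.15 times A and 5.86 times B in Sham and 4.0 and 8.15 times in TAC. Gpr39 stood at 3.70 and 4.08 times in Sham and 3.35 and 3.26 times in TAC, and Acss3 at 3.23 and 2.99 times and 3.25 and 3.797 times. Vit stood at 3.74 and 2.38 times in Sham and 2.27 and 2.19 times in TAC, the lowest of the 5 genes in TAC. Without the nerve, mesothelial and pericyte barcodes 18 of the 20 ratios stayed within their intervals, and in TAC Nkain2 over A went to 8.89 and Gpr39 over B to 4.67.

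**Figure D2:**
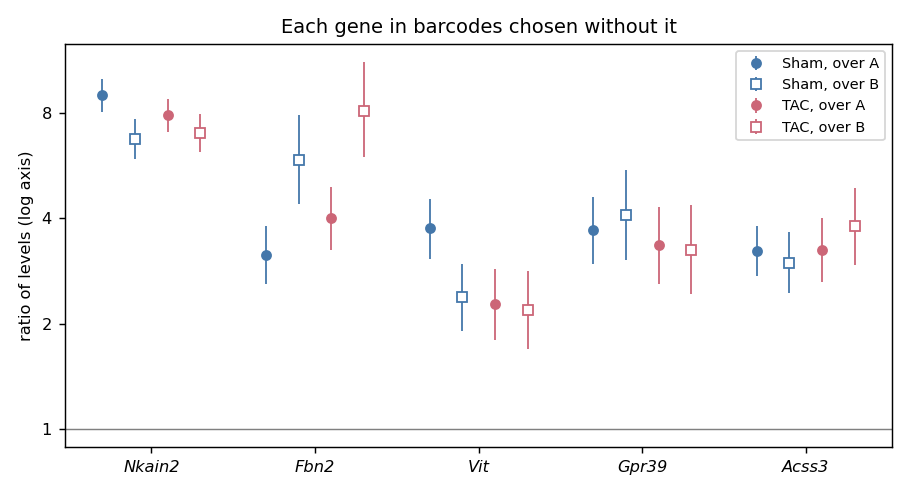
Ratio of levels (log axis) of each marker gene between barcodes chosen by the other 4 genes and A fibroblasts (filled circles) or B fibroblasts (open squares), Sham in blue and TAC in red, with exact 95% intervals as bars. A and B fibroblasts were chosen anew with the same gene left out of the C score. Nkain2 has the highest ratios over A fibroblasts (9.02 in Sham and 7.90 in TAC), while Fbn2 has the highest over B fibroblasts in TAC (8.15); the genes had been picked to go together in these data.

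The markers were also read in pairs, again as a description, among the fibroblast barcodes left after trimming and below the Postn-type limit. Barcodes with at least 2 Nkain2 UMIs (166 in Sham and 203 in TAC) held 5.35 times the Fbn2 level of barcodes with none in Sham and 3.65 times in TAC. Their Gpr39 level was 5.67 and 3.95 times higher. Their Acss3 level was 3.02 and 3.03 times higher, and their Vit level 2.98 and 2.18 times. For the pair of Gpr39 and Acss3, in Sham barcodes with at least 2 Gpr39 UMIs held 1.08 times the Acss3 level (0.838 to 1.38) and barcodes with at least 2 Acss3 UMIs held 0.982 times the Gpr39 level (0.743 to 1.28). In TAC these ratios were 1.62 (1.16 to 2.20) and 2.46 (1.76 to 3.38).

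Genes outside the rule were then compared between the members and both A and B fibroblasts. A gene was called when its level differed at least 2-fold from both with both intervals clear of 1, among genes with at least 50 UMIs in the 3 groups. In Sham, 152 of 9241 genes (1.64%) were higher and 129 (1.4%) were lower in the members. In TAC, 171 of 9570 (1.79%) were higher and 110 (1.15%) were lower. Of the higher genes, 74 were called in both libraries, 48.7% of the Sham and 43.3% of the TAC calls. Of the lower genes, 17 were called in both, 13.2% and 15.5%. Not every Sham call could recur, since 134 of the 152 higher and 122 of the 129 lower genes were tested in TAC.

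With the trimmed members, A and B, 136 of 9085 genes (1.5%) were higher and 128 (1.41%) lower in Sham, and 154 of 9380 (1.64%) were higher and 111 (1.18%) lower in TAC. Without the remaining member of the nerve cluster the TAC counts were 152 higher and 110 lower. Now 65 genes were higher in both libraries (47.8% of the Sham and 42.2% of the TAC calls) and 19 were lower in both (14.8% and 17.1%). Here 118 of the 136 higher and 120 of the 128 lower Sham genes were tested in TAC. The genes lower in both were Arhgap22, Aspn, Bhlhe40, Cabp1, Cd80, Hmcn2, Il16, Kcp, Map6, Morrbid, Nudt6, Pla1a, Rtkn, Sgms2, Shc3, Syk, Tll2, Tnfaip2 and Ubash3b.

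The genes with the highest Sham ratio to the nearer of A and B included many from the few nerve, mesothelial and pericyte barcodes. Of the 15 highest, 7 (Kcna1, Ptprz1, Slc35f1, Cadm2, Iqgap2, Igfbp5 and Ank3) had at least 50% of their member UMIs in those barcodes in both libraries. Cadm2, which encodes a synaptic adhesion protein, had 111 UMIs in Sham members, of which 110 came from the barcodes with genes of other cell types, and 150 in TAC members, of which 121 did. Ptprz1, a receptor phosphatase of glial cells, had all of its 30 Sham and 7 TAC UMIs there. Kcna1 did as well, with 33 and 12, and it was one of the genes that set the nerve barcodes apart. Igfbp5, which encodes a binder of insulin-like growth factors, had 93 Sham UMIs, and 96.8% of them were in a single member.

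The trimmed members gave a different set of 15. Adamtsl1, which encodes a secreted matrix protein related to the ADAMTS proteases, had 110 UMIs in 39 Sham members and a level of 219 CPM, against 12.8 in A and 16.6 in B fibroblasts (17.1 and 13.2 times). In TAC it had 91 UMIs in 40 members and stood at 178, 9.19 times the A and 9.93 times the B level. Ism1, which encodes the secreted protein isthmin-1, stood at 150 against 15.04 in A and 11.7 in B in Sham and at 114 against 11.6 and 4.69 in TAC. Both genes lay well above both other groups in each library, although 1 Sham member held 25.3% of the Ism1 UMIs.

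Adra1a, the alpha-1A adrenergic receptor, stood at 83.7 in Sham members, 6.52 times A (4.06 to 10.5) and 9.52 times B (4.57 to 22.2). In TAC it stood at 92.2, 9.30 times A (5.57 to 15.9) and 29.5 times B (10.8 to 113, on 4 UMIs in B). Alkal2, a ligand of the ALK receptor, stood at 59.8 in Sham, 9.06 times A and 7.65 times B, but at 31.4 in TAC, where the ratios were 1.998 (1.04 to 3.67) and 2.01 (0.973 to 4.08). It was the only one of the 15 that did not pass in TAC. Il1rapl1, a synaptic adhesion protein of the interleukin-1 receptor family, stood at 307 in Sham and 237 in TAC, 13.1 and 14.7 times A and 4.99 and 6.90 times B. It was seen in only 31 members of each library, and 1 Sham member held 24.0% of its UMIs.

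Igfbp3 and Pappa act on insulin-like growth factor, the first as a binding protein and the second as a protease of such proteins. Igfbp3 stood at 69.8 in Sham (11.9 times A and 17.9 times B) and at 33.3 in TAC, where it was 5.04 times A and had no UMI in B. It was seen in only 19 Sham and 12 TAC members. Pappa stood at 148 and 108, or 4.42 and 3.30 times A and 4.57 and 2.56 times B. Gpc3, a cell-surface glypican, stood at 75.7 and 70.6, or 6.26 and 2.67 times A and 8.61 and 4.52 times B. Plekha7 of adherens junctions stood at 79.7 and 54.9, or 6.39 and 22.2 times A, and had no UMI in the trimmed B fibroblasts of either library. Pdlim3, Mtss1 and Shroom3, which bind actin or its partners, were 4.26, 5.43 and 4.17 times A in Sham and 3.13, 5.47 and 2.49 times in TAC. The remaining genes of the 15 were Cdc42ep3, Sntg2 and Aox3, an aldehyde oxidase, with Sham ratios to A of 5.43, 4.38 and 21.4 and to B of 9.18, 4.23 and 4.27. In TAC their ratios to A were 2.68, 7.28 and 10.1 and to B 9.20, 9.62 and 4.18.

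Among the 10 lowest genes of the trimmed members, 5 passed in TAC as well. Syk, a tyrosine kinase best known from blood cells, had 5 UMIs in Sham members and stood at 9.96 against 74.1 in A and 80.1 in B, and at 21.6 against 47.9 and 49.2 in TAC. Aspn, the small proteoglycan asporin, stood at 39.9 against 168 and 147 in Sham and at 15.7 against 78.5 and 88.3 in TAC. Pla1a, a phospholipase, stood at 41.9 against 127 and 205, and at 39.2 against 145 and 242. The long noncoding RNA Morrbid was 0.297 times A and 0.383 times B in Sham and 0.248 and 0.285 times in TAC, and the basement membrane gene Hmcn2 0.395 and 0.400 times and 0.252 and 0.234 times. All 5 were still detected in the members of both libraries.

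The other 5 did not pass in TAC. Chrd, which encodes the BMP antagonist chordin, was 0.352 times A and 0.362 times B in Sham but 1.07 times (0.707 to 1.56) and 0.930 times (0.604 to 1.40) in TAC, so the groups overlapped there. Versican (Vcan), Slco3a1, Il17rd and Clip2 stood at 0.529, 0.623, 0.673 and 0.541 times A and 0.339, 0.349, 0.384 and 0.489 times B in TAC. The interval of Il17rd over A (0.393 to 1.09) included 1.

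**Figure D3:**
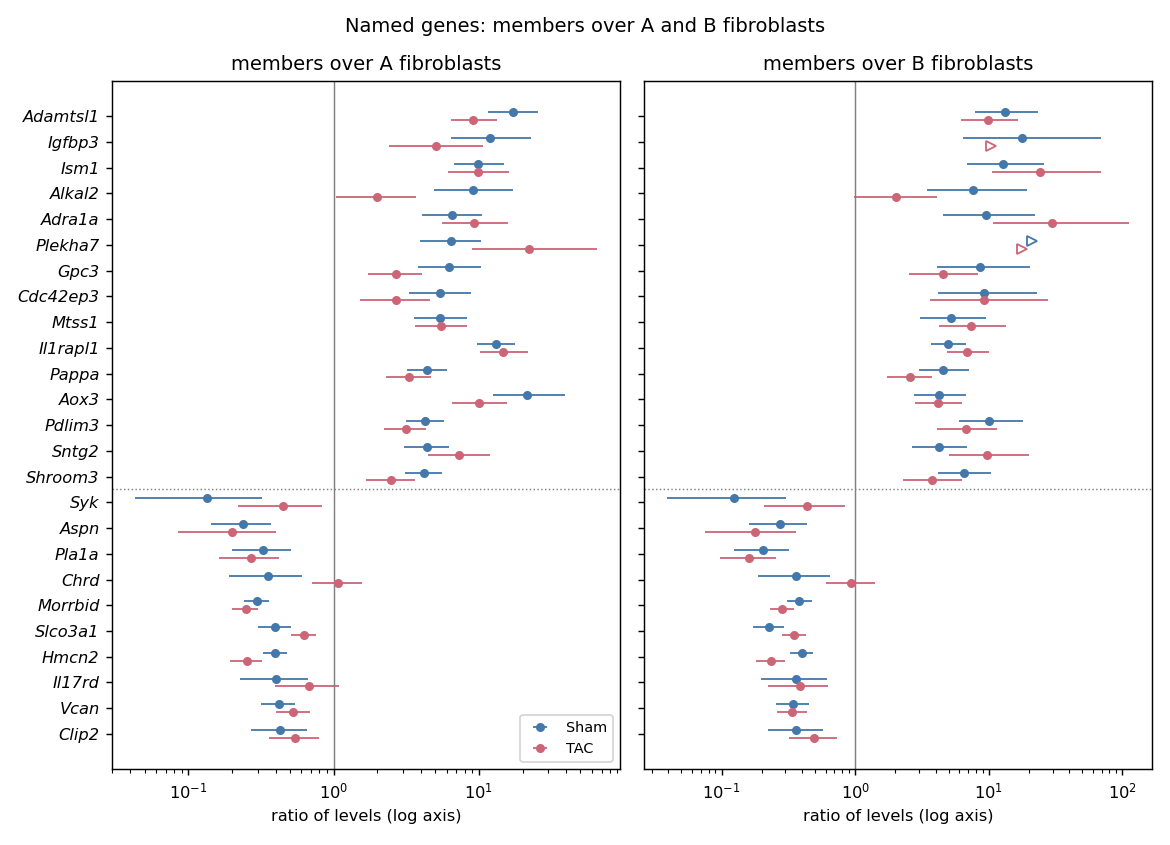
Ratio of levels (log axis) in trimmed members over A fibroblasts (left) and over B fibroblasts (right) for the 15 highest genes (above the dotted line) and 10 lowest genes in Sham, with TAC in red beside Sham in blue, exact 95% intervals as bars, and an open triangle at the lower limit where the compared group had no UMI. The Sham values chose the genes and the TAC values did not; in TAC the ratios of Alkal2 fall to 1.998 and 2.01 and those of Chrd to 1.07 and 0.930.

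Gene lists of pathways were read in the trimmed members by how many of their tested genes were called, beside the shares of all tested genes: 1.5% higher and 1.41% lower in Sham and 1.64% and 1.18% in TAC. In lists of this size a count of 0 or 1 lies near those shares and is no result about the list. Of 20 pan-fibroblast genes tested, none was called in either library, with median ratios of 1.02 to A and 1.05 to B in Sham and 1.002 and 1.03 in TAC. The medians over all genes tested were 0.959 and 0.961 in Sham and 0.981 and 0.984 in TAC. Among growth factors and receptors, 4 of 26 were higher in Sham (Igfbp3, Pdgfd, Vegfd and Angpt1) and 3 of 29 in TAC (Fgf10, Pdgfd and Vegfd), none was lower, and the medians were 1.34 and 1.30 in Sham and 1.07 and 1.15 in TAC. Pdgfd, a platelet-derived growth factor, stood at 399 in Sham, 3.71 times A and 5.23 times B, and at 306 in TAC, 3.63 and 7.25 times. Vegfd, a growth factor of lymphatic vessels, stood at 179 and 204, or 3.94 and 4.49 times A and 2.78 and 2.75 times B.

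Axon guidance genes contributed 4 of 24 higher calls in Sham (Slit3, Robo2, Plxna4 and Epha7) and 3 of 25 in TAC, again with none lower, with medians of 1.06 and 1.10 in Sham and 1.13 and 1.17 in TAC. Slit3, a secreted ligand of Robo receptors, had 1428 UMIs in 192 Sham members and 1313 in 188 TAC members. Its level was 2846 and 2575 CPM, 2.70 and 2.85 times A and 2.48 and 2.86 times B. Robo2, one of those receptors, stood at 93.7 in Sham and 68.6 in TAC, or 5.01 and 2.48 times A and 3.99 and 3.82 times B. It was seen in only 17 Sham and 14 TAC members. Epha7, an ephrin receptor, stood at 116 and 104, or 3.75 and 2.31 times A and 2.52 and 2.08 times B. A list of ion channels had similar shares. There 4 of 22 were higher in Sham (Piezo2, Trpm3, Kcnma1 and Gria4) and 3 of 19 in TAC (Trpm3, Kcnn3 and Gria4), with none lower. The medians were 1.21 and 1.20 in Sham and 0.976 and 1.06 in TAC.

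Matrix genes were called in both directions. Of the elastic fibre and microfibril genes, to which Fbn2 belongs, Lox and Adamtsl1 were the only ones of 22 called higher in each library, with medians of 0.899 and 1.06 in Sham and 1.01 and 1.08 in TAC. Lox, the lysyl oxidase that cross-links elastin and collagen, rested on 14 Sham and 18 TAC UMIs. Fbln2 was lower in Sham (0.476 times A and 0.368 times B) and Mfap3 in TAC. Of 15 proteoglycan and hyaluronan genes tested in Sham, Gpc3 was higher and Vcan, Aspn and Has2 were lower. Of 18 in TAC, Gpc3 and Omd were higher and Aspn was lower. Has2, a hyaluronan synthase, had 2 UMIs in Sham members and 77 in B fibroblasts, a ratio of 0.0530 (0.00630 to 0.198). Of 22 and 23 matrix enzymes and inhibitors, Adamts15 was higher in Sham and Adamts3, a procollagen protease, in both, at 331 in Sham and 165 in TAC, or 3.22 and 2.85 times A and 6.05 and 5.02 times B. Of 19 collagens tested, Col6a6 was higher in Sham at 2.38 times A and 3.23 times B, and stood at 1.75 and 2.66 times in TAC.

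In the complement list C4b was the one higher gene of 7 in each library, and C7 was lower in TAC. C4b stood at 142 CPM in Sham and 261 in TAC, 3.48 and 4.07 times A and 4.67 and 4.51 times B. Of 17 clock genes Bhlhe40, a repressor of the clock, was lower in both libraries, on 2 and 6 member UMIs, and Dbp was lower in TAC. None of 22 TGF-beta pathway genes was called in Sham, and 1 of 24, Tgfb1, was lower in TAC. Of 17 fibroblast activation genes, Lox, Sfrp1 and Piezo2 were higher in Sham and Lox in TAC, and Aspn was lower in both. Lists related to the markers themselves held 0 or 1 call. Of 7 sodium pump and NKAIN genes none was called in Sham and Nkain3 was higher in TAC (2.58 times A and 2.51 times B). Of 14 and 13 zinc transport genes 1, Slc39a6, was lower in Sham, on 1 member UMI, and of 12 and 13 acyl-CoA and propionate genes none was called.

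Several abundant genes outside these lists were called in both libraries. Sgcd, the delta-sarcoglycan of the membrane complex that links cells to laminin, had 1918 UMIs in 170 Sham members, 2.67 times A and 3.18 times B, and 1925 UMIs in 182 TAC members, 2.19 and 3.39 times. Svep1, a secreted adhesion protein, was 2.24 and 2.83 times A and 3.73 and 7.63 times B in Sham and TAC. Rgs6, a regulator of G-protein signalling, was 3.92 and 3.38 times A and 3.74 and 3.17 times B. Ccbe1, which assists the processing of lymphatic growth factors, was 4.92 and 3.47 times A and 2.81 and 3.45 times B. Chrm3, the M3 muscarinic receptor, was 8.31 and 4.36 times A and 2.82 and 4.32 times B, and was seen in 62 and 67 members. These genes were chosen after their values were seen.

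The trimmed members were divided by Nkain2 to see which of these genes went with it. In Sham, 83 members had 5 or more Nkain2 UMIs, 45 had 1 to 4 and 85 had none. In TAC these numbered 100, 51 and 60. Members without Nkain2 had median C scores of 4 and 3.5, against 19 and 15 in those with 5 or more, and their median A scores were 2 and 1. Of the 65 genes called higher in both libraries, all 65 were above both A and B in the members rich in Nkain2 and 61 in the members without it, in each library. The 65 genes had been chosen on all members together, so these counts only describe where the signal lay.

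Some of the 65 were higher in the members rich in Nkain2 than in the members without it. Of the 65, 19 in Sham and 14 in TAC were at least 2-fold higher, with an interval clear of 1. By contrast 1 and 4 were at least 2-fold lower, with an interval clear of 1. Members with 1 to 4 Nkain2 UMIs are not in this comparison. The share over all tested genes was not counted for this split. Hence these counts describe the 65 genes and do not set them apart from other genes. Ism1 stood at 172 against 5.28 in Sham (40 UMIs and 1) and at 142 against 56.9 in TAC. Trimmed Sham members held 75 Ism1 UMIs, and the rest of these lay in the 45 members with 1 to 4 Nkain2 UMIs. That class had only 79941 UMIs of all genes, against 232322 in the rich class. Ism1 in Sham was thus not confined to the members rich in Nkain2. Adamtsl1 stood at 387 against 31.7 in Sham and 258 against 99.5 in TAC. Adra1a stood at 146 against 21.1 and at 116 against 42.6, and Vegfd at 237 against 47.5 and 202 against 64.0. For Vegfd the members without Nkain2 lay between 45.5 in A and 64.5 in B fibroblasts in Sham, and between 45.5 and 74.3 in TAC. C4b was 2.45 times higher in the members rich in Nkain2 in Sham and 2.79 times in TAC, and Svep1 2.54 and 2.56 times.

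Other genes were as high in members without Nkain2. Chrm3 stood at 385 there against 400 with Nkain2 in Sham, and at 654 against 434 in TAC. Il1rapl1 stood at 201 against 177 and at 277 against 199, and Pdlim3 at 153 against 164 and at 107 against 146. In each case both classes were above A and B fibroblasts. Members with 1 to 4 Nkain2 UMIs are left out here. Of the 154 Il1rapl1 UMIs in trimmed Sham members, 41 lay in the rich class and 38 in the class without Nkain2. The rest lay in the members with 1 to 4. Cadm1, an adhesion protein, stood at 0.0565 times the level of the members without Nkain2 in TAC (3 UMIs against 28), and at 1.63 times (0.696 to 4.12) in Sham (18 against 9).

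**Figure D4:**
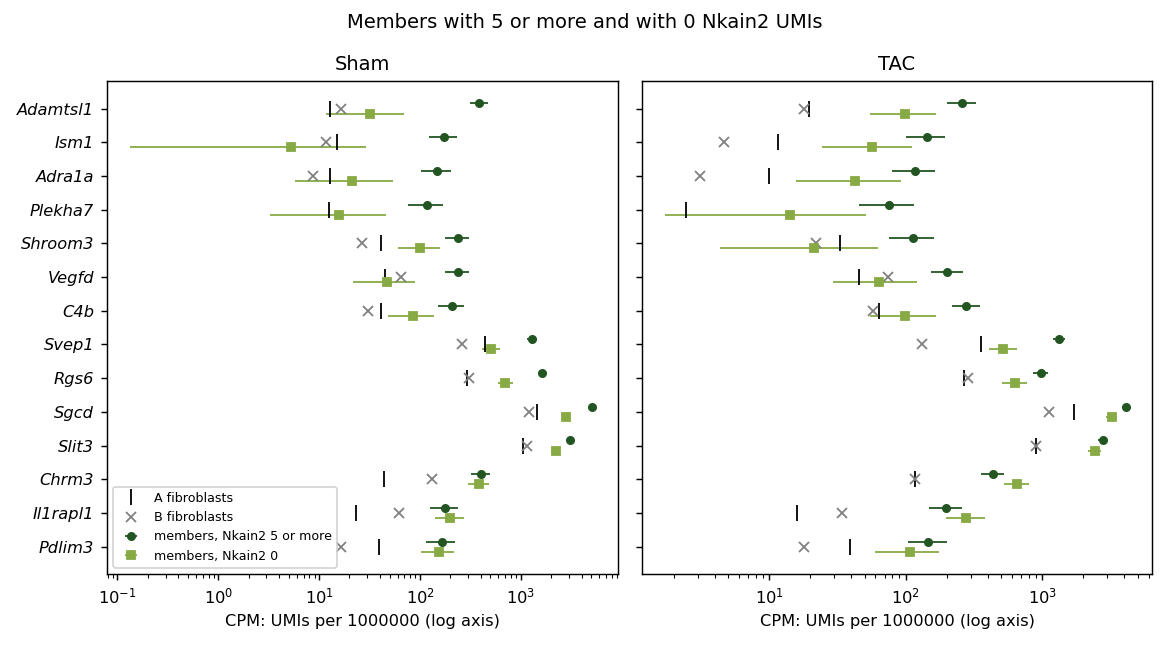
CPM (log axis) of 14 genes in trimmed members with 5 or more Nkain2 UMIs (dark circles) and with none (light squares), with exact Poisson 95% intervals, beside A fibroblasts (black ticks) and B fibroblasts (grey crosses), Sham left and TAC right; Plekha7 has no mark for B because it had no UMI there. Ism1 and Adamtsl1 separate the classes most in Sham (172 against 5.28 and 387 against 31.7), while Chrm3, Il1rapl1 and Pdlim3 overlap in Sham.

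Clustering of the fibroblast barcodes without any gene of the rule spread the members over several clusters that they shared with other fibroblasts. At resolution 1, 78 Sham members (34.5%) lay in a cluster of 281 barcodes, 58 in one of 253 and 33 in one of 146. In TAC 142 members (63.1%) lay in 1 cluster of 450. Members made up 27.8% of that first Sham cluster and 31.6% of the TAC one, and 8 of 9 and 6 of 7 barcodes of 1 small cluster in each library. That cluster was led by Cadm2, Slc35f1 and Kcna1 among its genes and held the nerve members, and its Nkain2 level was 5340 and 6822 CPM while its levels of the other 4 markers were 0. At resolution 0.5, 184 Sham members lay in a cluster of 1012 and 185 TAC members in one of 1275. At resolution 2 the first cluster held 54 members among 122 barcodes in Sham and 56 among 92 in TAC.

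The genes most like the members' pattern were sought as the 5 with the highest mean log2 ratio of members to all other fibroblast barcodes over both libraries. For all members they were Cadm2, Slc35f1, Chl1, Zfp536 and Igfbp3, with mean log2 ratios of 4.34, 4.30, 3.96, 3.37 and 3.34, and the UMIs of Cadm2, Slc35f1, Chl1 and Zfp536 came mostly from barcodes with genes of other cell types or of the small nerve cluster (110 of 111, 55 of 55, 23 of 25 and 25 of 28 in Sham). For the trimmed members they were Adam33 (3.70), Adamtsl1 (3.59), Plekha7 (3.59), Igfbp3 (3.28) and Shisa9 (3.23).

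The TAC and Sham members were compared gene by gene, with A and B fibroblasts read in the same 2 libraries. Any difference between the libraries, surgery included, enters these ratios. Among genes with at least 50 UMIs, 100 of 4179 (2.39%) were at least 2-fold higher in TAC members and 45 (1.08%) were at least 2-fold lower with intervals clear of 1. The median ratio was 0.996. With the trimmed members 98 of 3915 (2.5%) were higher and 48 (1.23%) lower. The share of UMIs from Malat1, a nuclear noncoding RNA, was 7.21% in Sham and 8.08% in TAC members, and 8.28% and 9.29% in A fibroblasts.

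Over all fibroblast barcodes, which the C score did not choose, Acss3 stood at 0.579 times its Sham level in TAC (0.521 to 0.642). It was 0.568 times in the members, 0.567 in A and 0.487 in B fibroblasts. Nkain2 was 1.07 times (1.003 to 1.14) over all fibroblast barcodes and 1.04 times (0.974 to 1.11) in the members. Fbn2, Vit and Gpr39 were 0.821, 0.870 and 0.782 times over all fibroblast barcodes and 0.767, 0.699 and 0.746 times in the members. The ratio of Acss3 was thus below 1 in all 3 groups, and none of the 5 markers passed the 2-fold call in the members.

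Zbtb16, a transcriptional regulator induced by glucocorticoids, had 1459 UMIs in 207 trimmed Sham members and 367 in 139 TAC members, a ratio of 0.248 (0.220 to 0.278). It was 0.284 in A and 0.274 in B fibroblasts, nearly the same fall. Lvrn, a membrane aminopeptidase, went from 835 to 282 CPM in the members, a ratio of 0.338 (0.278 to 0.410), against 0.739 (0.677 to 0.807) in A and 0.513 (0.444 to 0.593) in B. Lvrn, like the other genes named here, was picked on the members' own ratio, so its gap to A and B is a description. Trip10, a membrane-curving protein, had a ratio of 0.328 (0.209 to 0.501), against 0.745 (0.639 to 0.867) in A and 0.832 (0.682 to 1.02) in B. Stk32b, Stc2, Slco1a4, Mb21d2, Plcxd3, Alkbh8 and an entry of Arhgap26 completed the 10 lowest, on 5 to 14 TAC UMIs each. The symbol Arhgap26 has more than 1 entry, and this one overlaps another on the same strand that is not shown.

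Nr4a1, an immediate-early nuclear receptor, went from 5 to 36 UMIs in the trimmed members, 7.09 times (2.77 to 23.1), and was 2.74 times in A and 2.70 times in B. Hacd2, an enzyme of long-chain fatty acid elongation, went from 10 to 59 UMIs, 5.81 times (2.95 to 12.7), against 1.22 times (0.944 to 1.58) in A and 1.47 times (0.934 to 2.36) in B, and 1 TAC member held 22% of its UMIs. Gda, which encodes guanine deaminase, went from 24 to 98 UMIs, 4.02 times (2.55 to 6.57), against 1.76 times (1.51 to 2.06) and 1.86 times (1.58 to 2.21). Of the remaining 7 highest, Pigf and Fbxl2 were 4.36 and 3.83 times, and 1700109K24Rik, Gm19710, Gm48742, Gm6878 and Gm32569 each overlapped another gene on the opposite strand and were 3.85 to 4.50 times, with A ratios of 1.88 to 2.92. Hacd2, Pigf and Fbxl2 overlapped such genes too, and whether reads were split by strand is not given in the sources used here. Of all members before trimming, Wdr17 had the highest ratio, 8.56, but 61.4% of its TAC UMIs were in 1 member.

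In the gene lists, beside 2.5% of all genes higher and 1.23% lower, Zbtb16 and Pdk4 were lower in TAC among 9 glucocorticoid-induced genes tested in trimmed members, with a list median of 0.681 against 0.994 over all genes tested. Pdk4 was 0.479 times, with 0.511 in A and 0.343 in B. Of 6 complement genes C3 was higher (2.83 times, with 2.88 in A and 2.17 in B) and C7 lower (0.479 times, with 0.886 in A and 1.01 in B). Of 16 matrix enzymes and inhibitors Mmp3 and Adamts1 were higher and Adamts3 lower (0.498 times, 0.378 to 0.651, with 0.563 in A and 0.6 in B). Mmp3 was 2.16 times, with 3.62 in A and 1.83 in B, and Adamts1 2.14 times, with 1.34 in A and 2.76 in B. Adamts3 had been among the genes higher in the members than in A and B in both libraries. Of 15 collagens, 16 elastic fibre genes, 19 TGF-beta pathway genes and 10 fibroblast activation genes 0 were called, which is near the share of all genes, and the medians were 1.10, 1.04, 1.12 and 0.866.

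**Figure D5:**
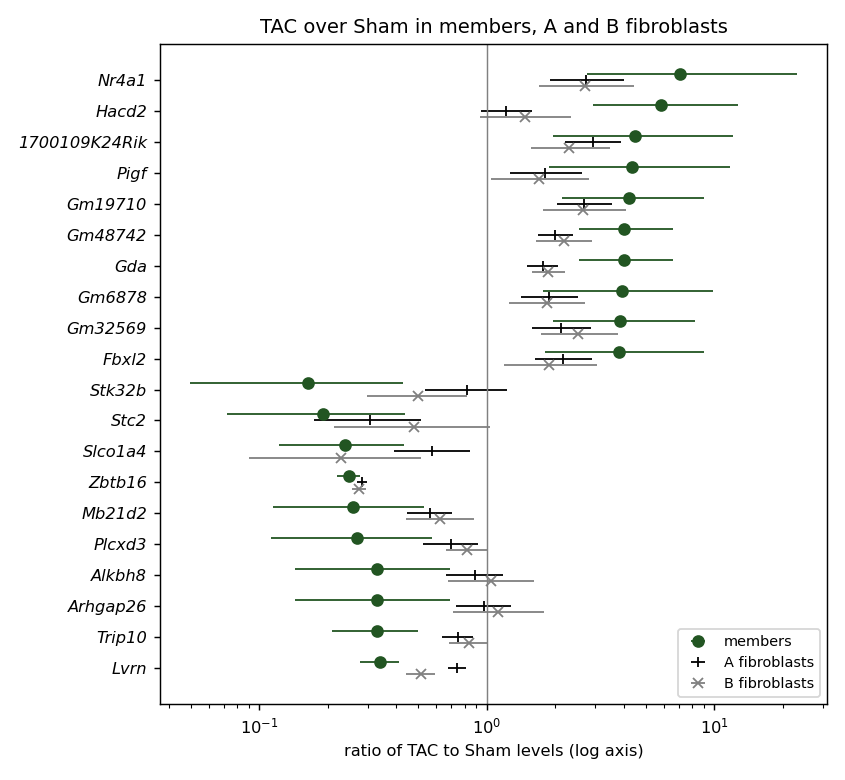
Ratio of TAC to Sham levels (log axis) for the 10 highest and 10 lowest genes of the trimmed members, with exact 95% intervals, in members (circles), A fibroblasts (ticks) and B fibroblasts (crosses). Zbtb16 has nearly the same ratio in all 3 groups (0.248, 0.284 and 0.274), while the members' intervals for Lvrn and Hacd2 lie outside those of both other groups; the genes were picked on the members' ratio.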

How the data were processed

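Cells of 2 pooled heart libraries were captured with a 3-prime 10x kit (version 3 per the labels, version 2 in the paper). The authors deposited raw UMI counts per gene and barcode from Cell Ranger, without normalization (version 7.1.0 per the labels, an earlier one in the paper). The genome build and intron setting are not given in the sources used here, and intron counting raises long genes. The matrices held 28146691 (Sham) and 29108986 (TAC) UMIs. Of 55357 gene identifiers 52081 (94.1%) were in GENCODE M21, used for positions. Counts were summed per group and divided by its UMIs, with exact Poisson, Clopper-Pearson and conditional binomial 95% intervals, in Python 3.11.15 with scipy 1.17.1 and scanpy 1.11.5 (seed 1). Each interval covers counting error only. Doublets were called by Scrublet and kept. Clusters used 2000 variable genes, 30 components and 15 neighbours. Named genes were the 15 highest and 10 lowest Sham ratios (at least 30 UMIs, seen or expected, in members), the 10 highest and 10 lowest TAC to Sham ratios (30 UMIs or more in either library, 5 or more in its counterpart), list members and 5 by likeness. Alternatives were Scrublet removal, 500 genes, 25% mitochondrial UMIs, a C score of 3, no Postn-type limit, thinning to 1000 UMIs, denominators without mitochondrial UMIs, gene minimums of 100 and 20, and centring on the median. The members and the 33 gene lists were chosen with earlier results of these data known. The ratio and calling steps were tested on simulated data. Results that rest on items withheld for other use are not reported here.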

Additional observations from a re-analysis of the deposited data

Results flagged for a closer look

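Each gene below was called between TAC and Sham in the members while its ratio lay clear of 1 on the other side in A or B fibroblasts. The difference between groups was not tested, and 4179 genes were compared. Igfbp5 was 0.324 times its Sham level in TAC members (93 and 31 UMIs) and 1.99 times (1.15 to 3.52) in A fibroblasts; 96.8% of the Sham UMIs were in 1 member, and 1 and 6 UMIs were left in the trimmed members. Iqgap2 was 0.392 times in members and 1.82 times in A, and 0.257 times (0.0855 to 0.649) in trimmed members. Spats2 was 0.486 times in members (0.278 to 0.829), 0.492 times in trimmed members and 1.47 times (1.18 to 1.83) in A. Heatr3 was 2.07 times in members (1.11 to 4.01), 2.25 times in trimmed members and 0.614 times (0.411 to 0.913) in B.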

How the results depend on the processing

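No paired analysis was possible because the labels give no replicate numbers and Sham and TAC had 1 library apiece. Both shares stayed within their intervals under all 8 alternatives, of which leaving out nerve, mesothelial and pericyte barcodes, alone or with the small nerve clusters, was chosen after seeing the data. The gene counts changed by more than 1.5 times under the gene minimums: with 100 UMIs, 87 genes were higher and 81 lower than in A and B in Sham, 87 were higher in TAC, and 27 were higher and 15 lower in TAC than in Sham, and with 20 UMIs, 229 and 257 were higher in Sham and TAC, and 338 were higher and 159 lower between the libraries. These minimums change how many genes are tested. Applying the rule to thinned barcodes left 85 lower genes in Sham and moved the ratio of a marker left out of the score to all other fibroblast barcodes from 7.70 to 5.39 (Nkain2, Sham), 7.63 to 6.38 (Nkain2, TAC), 4.15 to 5.05 (Fbn2, Sham) and 3.32 to 2.43 (Acss3, Sham); the cause was not tested. Of 1446 ratios of single genes under alternatives, 73 moved outside their interval and 28 turned direction, while 5 of 168 ratios had no finite value because the compared group held no UMI. The turns were in Cadm2, Igfbp5, Iqgap2, Ptprz1 and Slc35f1. Igfbp5 in Sham fell to 0.507 (A) and 0.142 (B) at a C score of 3, to 0.651 and 0.247 with thinning and to 0.272 and 0.408 without the barcodes of other cell types, in TAC to 0.770 and 0.941 without those, and its TAC to Sham ratio rose to 12.7, 12.5 and 5.90 under the same 3 settings. Without those barcodes Slc35f1 (A, Sham) and Ptprz1 (A and B, TAC) were at 0 in members, Ptprz1 (A) also with thinning, and Iqgap2 (A, TAC) was at 0.730, or 0.944 with thinning. Leaving out the nerve clusters too gave the same Sham values and, in TAC, 0 for Cadm2 (A and B) and Ptprz1 (A and B), 0.610 for Iqgap2 (A), 0.771 and 0.943 for Igfbp5 (A and B) and 5.92 for its TAC to Sham ratio.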

Other observations

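Genes called higher in the members were long. In Sham the 152 genes had a median span of 96.1 kb in GENCODE M21, against 33.5 kb over the genes tested and 24.4 kb for the 129 lower genes, and in TAC the values were 86.5, 32.0 and 29.3 kb. In the trimmed members the higher genes spanned 100.6 and 74.2 kb. Whether intron counting had a part in this was not tested.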
